A study of Mus musculus with 8 samples.

Results

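Transforming growth factor beta (TGF-beta) genes were examined in bone marrow-derived macrophages (BMDMs) of WT and Gsdmd-/- mice. The set holds 10 of the 54532 genes in the count table, taken by their symbols: the ligands Tgfb1 and Tgfb2, the latency and activation genes Lrrc32, Nrros and Ltbp3, the receptors Tgfbr1 and Tgfbr2, the signal carrier Smad3, its repressor Skil and the induced matrix gene Tgfbi. It was put together around Lrrc32, whose lower level in the Gsdmd-/- libraries was already known. The difference between genotypes in these 10 genes is therefore given as a description, and where genes of the set are counted past a threshold nothing is read from the count.

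BMDMs are macrophages grown in culture from marrow cells with macrophage colony-stimulating factor. The cells came from female C57BL/6J mice aged 6 to 8 weeks, had differentiated for 6 days and had received no treatment. There were 4 WT libraries, and 4 libraries of mice that lack Gsdmd, the gene of the pore-forming protein gasdermin D. The WT mice were bought and the Gsdmd-/- mice were kept as a colony of the research facility, and no source used here calls them littermates, so that genotype and origin of the mice cannot be told apart. The sources do not state if the libraries of a genotype came from different mice, and p-values then measure only the spread between these libraries.

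The libraries held 14935114 to 16794810 counts each. Levels are given as CPM, the counts of a gene scaled to a common library total. Where a gene has 0 counts, counting error alone leaves room for up to 3 counts, or 0.177 to 0.199 CPM. Gsdmd had 1039 to 1570 counts in the WT and 241 to 307 in the Gsdmd-/- libraries (log2 fold change -2.22 ± 0.139 SE), in the direction of the labels. All 10 macrophage markers examined (Adgre1, Cd68, Csf1r and others) were measured, and their summed level was 16200 to 24100 CPM in WT and 20100 to 24100 CPM in Gsdmd-/- libraries. WT 2 and WT 3 stood apart from the other 6 libraries on the first principal component, which held 43.6% of the variance, with scores of 45.4 and 38.8 against -25.9 to -7.19. For the set and the reported pathway genes that were named by the rule given with the processing, log2 fold changes that turned in sign or moved by over 1.5 times when these 2 libraries were left out are given with and without them.

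TGF-beta is released from cells in a latent form, in which the mature cytokine stays wrapped in its own propeptide. The latent complex is held on the cell surface by LRRC32, also called GARP, which is best known from regulatory T cells and platelets, or by NRROS, which is found on macrophages and microglia. In the matrix it is held by latent TGF-beta binding proteins such as LTBP3. Integrins or proteases free the cytokine, which binds TGFBR2. TGFBR2 then recruits and phosphorylates TGFBR1, and TGFBR1 phosphorylates SMAD2 and SMAD3, which enter the nucleus with SMAD4. In macrophages the pathway is known for restraining inflammatory gene expression and for inducing matrix proteins.

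The sequences before the start sites of 4 genes are shown because Tgfbr1, Tgfbr2 and Ltbp3 had the same library pattern, described further on, and Tgfbi is the target gene of the set. Each runs 5′ to 3′ on the strand of its gene over the 250 bases before the start site in the RefSeq table of GRCm38.p6. They cover chr4:47352972-47353221 on the plus strand for Tgfbr1, chr9:116175364-116175613 on the minus strand for Tgfbr2, chr19:5740650-5740899 on the plus strand for Ltbp3 and chr13:56609336-56609585 on the plus strand for Tgfbi. Capitals mark the letters CAGAC, or GTCTG on the other strand, the short box that SMAD proteins are known to bind.
Tgfbr1: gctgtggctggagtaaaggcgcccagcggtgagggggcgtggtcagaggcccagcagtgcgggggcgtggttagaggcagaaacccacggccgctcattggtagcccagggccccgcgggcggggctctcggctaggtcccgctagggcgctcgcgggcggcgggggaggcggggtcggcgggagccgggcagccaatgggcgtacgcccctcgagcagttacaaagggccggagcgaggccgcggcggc
Tgfbr2: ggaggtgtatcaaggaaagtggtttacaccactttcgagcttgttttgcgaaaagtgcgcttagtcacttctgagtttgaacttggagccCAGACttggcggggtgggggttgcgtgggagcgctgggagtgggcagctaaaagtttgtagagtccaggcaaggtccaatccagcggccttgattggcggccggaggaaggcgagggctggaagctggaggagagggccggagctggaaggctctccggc
Ltbp3: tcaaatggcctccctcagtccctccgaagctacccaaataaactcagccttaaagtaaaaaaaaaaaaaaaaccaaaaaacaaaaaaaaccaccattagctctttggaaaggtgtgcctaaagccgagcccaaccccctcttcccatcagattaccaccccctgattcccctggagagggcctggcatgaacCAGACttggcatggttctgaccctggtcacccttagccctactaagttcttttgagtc
Tgfbi: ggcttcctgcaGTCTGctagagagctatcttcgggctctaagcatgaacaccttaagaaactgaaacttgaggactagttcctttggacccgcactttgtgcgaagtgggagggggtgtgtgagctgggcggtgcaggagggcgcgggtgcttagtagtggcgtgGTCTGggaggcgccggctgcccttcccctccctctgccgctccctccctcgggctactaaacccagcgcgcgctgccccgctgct
Tgfbi held the box at -239 to -235 and at -85 to -81, counted back from the start site, Tgfbr2 at -160 to -156 and Ltbp3 at -58 to -54. A second Tgfbr1 start site in the table, at chr4:47385966-47386215, had the box at -203 to -199. The Tgfbr1 window shown held no such box and had a GC content of 74.8%, against 58.4% for Tgfbr2, 47.2% for Ltbp3, 62.4% for Tgfbi and a median of 52.4% over 32817 windows of the same length. The box was in 42.2% of these windows, so its presence sets no gene apart. The table had an entry for 8 of the 10 genes, all but Lrrc32 and Skil. The letters GTGGGAA, which the Notch factor RBPJ binds, were searched on both strands and were in no window of the 8 genes and in 5.42% of all windows.

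Lrrc32 (ENSMUSG00000090958, chromosome 7, 98489283 to 98502181, GRCm38, plus strand) anchors latent TGF-beta on the cell surface. Its level was 40.4, 43.4, 41.0 and 52.6 CPM in WT 1 to 4 and 16.5, 17.7, 24.3 and 31.2 CPM in Gsdmd-/- 1 to 4. The highest Gsdmd-/- library was thus below the lowest WT library, and no other gene of the set separated the genotypes in this way. The counts behind these values were 663 to 865 in WT and 279 to 471 in Gsdmd-/- libraries. The mean was 44.4 ± 5.68 CPM in WT and 22.5 ± 6.78 CPM in Gsdmd-/- libraries (SD, n = 4), which is 50.6% of the WT level. The log2 fold change was -0.98 ± 0.191 SE, and -1.06 ± 0.226 without WT 2 and WT 3.

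**Figure D1:**
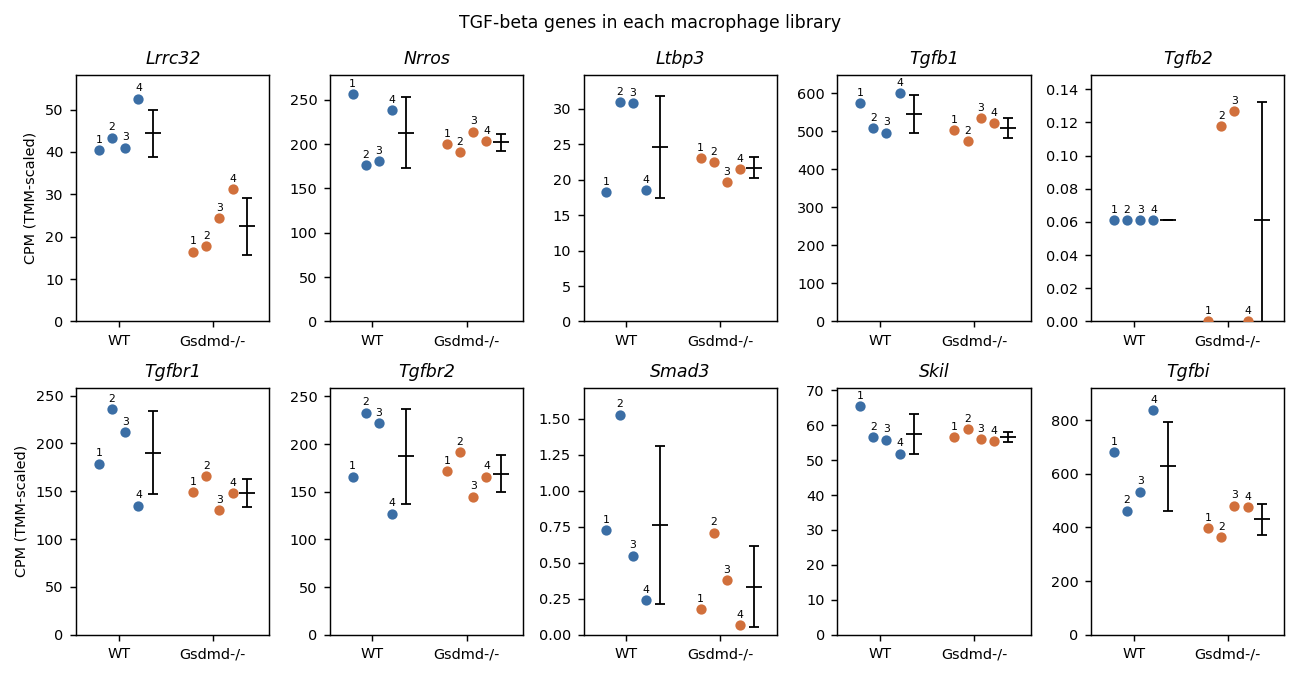
Level of each of the 10 genes in CPM on the y axis, in WT (blue) and Gsdmd-/- (orange) BMDMs. Each point is 1 library, marked with its number, and the bars give the mean ± SD of 4 libraries, with each y axis starting at 0 and scaled to its gene. The 4 Gsdmd-/- points of Lrrc32 (16.5 to 31.2 CPM) lie below all WT points (40.4 to 52.6 CPM), while the genotypes overlap in the other 9 genes.

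Lrrc32 varied more among the Gsdmd-/- than among the WT libraries. The SD of its log2 CPM was 0.423 in the Gsdmd-/- libraries, higher than that of 90.4% of the 12911 genes tested, and 0.176 in WT, higher than that of 33.8%. Gsdmd-/- 1 and 2 were low and alike, Gsdmd-/- 4 came closest to WT, and Gsdmd-/- 3 lay between them. Without Gsdmd-/- 4 the log2 fold change was -1.19, and without Gsdmd-/- 1 it was -0.86. These were the ends of its range over the 16 other analyses tried.

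Lrrc32 is expressed in other cells that a marrow culture can hold, and their markers were measured beside it. Of 10 T and regulatory T cell markers, 4 passed the filter on low counts, Cd3d and Ctla4 had 0 counts and Foxp3 had at most 0.592 CPM. Their summed level was 14.5 to 21.1 CPM in WT and 11.9 to 15.8 CPM in Gsdmd-/- libraries. Ikzf2 made up most of it (12.3 and 8.67 CPM on average in WT and Gsdmd-/-). Of the others that passed, Cd4 (1.45 and 0.972 CPM) and Il2ra (2.47 and 2.34 CPM) stood lower and Lck (1.3 and 1.86 CPM) higher in Gsdmd-/- libraries. Of 10 megakaryocyte and platelet markers, 5 passed, Gp1bb and Gp6 had 0 counts, and Vwf alone made up most of the sum of 116 to 249 CPM in WT and 106 to 148 CPM in Gsdmd-/- libraries. Of 10 endothelial markers, 3 passed and Tek and Cldn5 had 0 counts, with sums of 30.0 to 70.1 and 49.5 to 81.5 CPM. Kdr made up most of this sum (41.3 and 63.5 CPM on average in WT and Gsdmd-/-), and the other 2 that passed stood lower in Gsdmd-/- libraries on average, Cdh5 at 5.18 and 3.66 CPM (log2 fold change -0.51, adjusted p = 0.402) and Tie1 at 1.01 and 0.576 CPM (-0.80, adjusted p = 0.713). Tie1 had 2, 31, 30 and 3 counts in WT 1 to 4 and 10, 7, 10 and 10 in Gsdmd-/- 1 to 4. Its lower mean thus rested on WT 2 and WT 3, and every Gsdmd-/- library was above WT 1 and WT 4. For stromal cells 3 of 10 markers passed and Lum had 0 counts, with sums of 6.82 to 9.68 and 5.09 to 11.2 CPM. In these 4 lists the genotypes overlapped. So they did for B cell markers (36.1 to 53.6 CPM in WT and 38.0 to 43.3 CPM in Gsdmd-/- libraries, mostly Cd22, with the other 5 below 1 CPM in every library), neutrophil markers (5.36 to 7.94 and 6.93 to 7.69 CPM, mostly S100a8) and mast cell and basophil markers (10.7 to 72.5 and 46.4 to 67.8 CPM, mostly Kit).

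The sum of 10 dendritic cell markers did separate the genotypes, at 122 to 127 CPM in WT and 78.8 to 97.4 CPM in Gsdmd-/- libraries. By the exact permutation test, two-sided, p was 0.0286, the smallest that 4 against 4 libraries can give, and 0.257 after adjustment over 9 marker lists, the lowest value that 1 separated list among 9 can reach. Irf4 (84.0 and 65.7 CPM on average in WT and Gsdmd-/-) and Clec9a (32.2 and 16.6 CPM) made up most of it. Both are also expressed outside dendritic cells. Clec9a had 803 and 741 counts in WT 2 and WT 3, 279 and 290 in WT 1 and WT 4, and 244 to 278 in the Gsdmd-/- libraries. Irf4 ran the other way in WT, with 1174 and 1132 counts in WT 2 and WT 3, 1654 and 1551 in WT 1 and WT 4, and 987 to 1145 in the Gsdmd-/- libraries. The separation of the sum thus rested on Clec9a in WT 2 and WT 3 and on Irf4 in WT 1 and WT 4. Siglech had 0 counts, Flt3 had 2 counts in 1 library and 0 in the others, and 5 of the 10 markers passed the filter. The part of these cells in the level of Lrrc32 was not tested. In bulk RNA, fewer cells of a type and less RNA per cell cannot be told apart.

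Nrros (ENSMUSG00000052384, chromosome 16, 32142785 to 32165594, minus strand), the anchor that macrophages use, had 256, 176, 181 and 238 CPM in WT 1 to 4 and 200, 191, 214 and 203 CPM in Gsdmd-/- 1 to 4. All Gsdmd-/- libraries lay within the WT range, with WT 2 and WT 3 at its lower end. The mean was 213 ± 40.2 CPM in WT and 202 ± 9.51 CPM in Gsdmd-/- libraries (log2 fold change -0.07 ± 0.126 SE), and without WT 2 and WT 3 the log2 fold change was -0.29. Scaled by exon length, so that genes can be compared, Lrrc32 stood at 0.19 ± 0.0344 of Nrros in WT and at 0.0986 ± 0.028 in Gsdmd-/- libraries. The ratio ran from 0.141 to 0.22 in WT and from 0.0735 to 0.137 in Gsdmd-/- libraries, without overlap. The cell-surface anchor known from macrophages was thus the more abundant one in every library.

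Ltbp3 (ENSMUSG00000024940, chromosome 19, 5740904 to 5758532, plus strand), which binds latent TGF-beta in the matrix, had 18.2, 30.9, 30.8 and 18.5 CPM in WT 1 to 4. The Gsdmd-/- libraries held 23.0, 22.5, 19.7 and 21.5 CPM and lay between WT 1 and 4 on one side and WT 2 and 3 on the other. The means were 24.6 ± 7.22 and 21.7 ± 1.48 CPM (log2 fold change -0.18 ± 0.186 SE). The log2 fold change was 0.24 without WT 2 and WT 3, so that its sign rests on these libraries.

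Tgfb1 (ENSMUSG00000002603, chromosome 7, 25687002 to 25705077, plus strand), the main TGF-beta ligand of macrophages, was abundant in every library. It had 574, 509, 497 and 601 CPM in WT 1 to 4 and 503, 475, 535 and 522 CPM in Gsdmd-/- 1 to 4. The genotypes overlapped, and only WT 1 and WT 4 were above all Gsdmd-/- libraries. The mean was 545 ± 50.4 CPM in WT and 509 ± 26.0 CPM in Gsdmd-/- libraries (log2 fold change -0.10 ± 0.0897 SE), which is 93.3% of the WT level, and without WT 2 and WT 3 the log2 fold change was -0.21. Tgfb2 (ENSMUSG00000039239, chromosome 1, 186622792 to 186705989, minus strand) had 1 count in each WT library and 0, 2, 2 and 0 counts in Gsdmd-/- 1 to 4. Tgfb2 was thus seen in 6 of the 8 libraries at 1 or 2 counts, and at this depth no difference between the genotypes could be measured. The third ligand, Tgfb3, had 5 to 13 counts in WT and 7 to 15 counts in Gsdmd-/- libraries and did not pass the filter.

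Tgfbr1 (ENSMUSG00000007613, chromosome 4, 47353222 to 47414931, plus strand), the type I receptor kinase, had 179, 236, 212 and 135 CPM in WT 1 to 4 and 149, 166, 130 and 148 CPM in Gsdmd-/- 1 to 4. WT 1, 2 and 3 were above every Gsdmd-/- library, and WT 4 was among them. The mean was 190 ± 43.8 CPM in WT and 148 ± 14.4 CPM in Gsdmd-/- libraries (log2 fold change -0.36 ± 0.157 SE), and without WT 2 and WT 3 the log2 fold change was -0.08. Tgfbr2 (ENSMUSG00000032440, chromosome 9, 116084293 to 116175360, minus strand), the type II receptor that binds the ligand first, had 166, 233, 222 and 127 CPM in WT 1 to 4. Its Gsdmd-/- libraries had 172, 192, 145 and 166 CPM and all lay within the WT range. Here the means were 187 ± 49.7 and 169 ± 19.3 CPM (log2 fold change -0.15 ± 0.178 SE), and the sign turned to 0.20 on the log2 scale without WT 2 and WT 3.

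The balance of the receptors varied less than either receptor. Per exon length, the ratio of Tgfbr1 to Tgfbr2 was 1.35, 1.26, 1.20 and 1.33 in WT 1 to 4 and 1.09, 1.08, 1.13 and 1.12 in Gsdmd-/- 1 to 4. The means were 1.29 ± 0.0669 and 1.10 ± 0.0228 (SD, n = 4), and the genotypes did not overlap. In WT the single receptors ranged from 135 to 236 and from 127 to 233 CPM, while the ratios of WT 2 and WT 3 were below those of WT 1 and WT 4 and above those of the Gsdmd-/- libraries. The ratio was looked at after the values of its genes had been seen, and it is given without a test.

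Smad3 (ENSMUSG00000032402, chromosome 9, 63646767 to 63757994, minus strand), which carries the signal to the nucleus, had 12, 25, 9 and 4 counts in WT 1 to 4 and 3, 12, 6 and 1 counts in Gsdmd-/- 1 to 4. The totals were 50 and 22 counts, the genotypes overlapped, and the gene did not pass the filter. Its mean was 0.763 ± 0.548 CPM in WT and 0.334 ± 0.282 CPM in Gsdmd-/- libraries, and a fit without the filter gave a log2 fold change of -1.14 ± 0.61 SE. The filter, rerun on fewer libraries, kept the gene in 5 of the 8 analyses that left out 1 library, with log2 fold changes of -1.44 to -0.84, and without WT 2 and WT 3, with -0.52 ± 0.773 SE. Smad3 was kept when WT 3, WT 4 or Gsdmd-/- 1, 3 or 4 was left out, and not without WT 1, WT 2 or Gsdmd-/- 2, its highest libraries. The 5 fits were thus picked by the counts of the gene itself, and nothing is read from their range. Smad2, the other receptor-activated SMAD of the pathway, had 2958 counts in total over the 4 WT and 3084 over the 4 Gsdmd-/- libraries. Skil (ENSMUSG00000027660, chromosome 3, 31095058 to 31122577, plus strand), also called SnoN, represses SMAD targets and had 65.4, 56.6, 55.9 and 51.9 CPM in WT 1 to 4. The Gsdmd-/- libraries had 56.6, 58.8, 56.0 and 55.5 CPM, all within the WT range and and closer to each other than in WT, with an SD of log2 CPM of 0.037 that was higher than that of only 2.34% of the genes tested. Its mean was 57.5 ± 5.66 CPM in WT and 56.8 ± 1.47 CPM in Gsdmd-/- libraries (log2 fold change -0.02 ± 0.0866 SE, and -0.05 without WT 2 and WT 3).

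Tgfbi (ENSMUSG00000035493, chromosome 13, 56609523 to 56639562, plus strand), a secreted matrix protein induced by TGF-beta, had 680, 463, 534 and 837 CPM in WT 1 to 4. It had 399, 365, 482 and 475 CPM in Gsdmd-/- 1 to 4, and WT 2 fell among these values, so that the genotypes overlapped. The mean was 629 ± 166 CPM in WT and 430 ± 57.3 CPM in Gsdmd-/- libraries (log2 fold change -0.55 ± 0.177 SE), which is 68.4% of the WT level. WT 4 was the highest library, and without it the log2 fold change was -0.38. It was -0.48 without Gsdmd-/- 2 and -0.82 without WT 2 and WT 3.

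Of the 8 genes that passed the filter, Lrrc32 and Tgfbi were lower at the cutoff of the study (unadjusted p under 0.05, log2 fold change of 0.5 or more in size) and 0 were higher, where 3.28% of all genes tested were lower and 1.54% were higher. Nearest to Tgfbi among the genes that missed it was Tgfbr1. All 8 log2 fold changes were below 0, with a median of -0.17 against -0.0068 over all genes tested, and 6 of them lay between -0.36 and -0.02. By edgeR's quasi-likelihood test 0 of the 8 had a Benjamini-Hochberg adjusted p under 0.05, where 0.349% of all genes did, and 3 had an unadjusted p under 0.05, where 12% of all genes did. Of the 16 other analyses, 1 of the 8 had an adjusted p under 0.05 by DESeq2, without the filter, with a replicate block and without Gsdmd-/- 4 (Lrrc32 in each) and without WT 2 and WT 3 (Tgfbi), and 0 had in the others, limma voom among them. In Lrrc32, 1 of the 8 genes was lower without overlap, where 4.12% of all genes tested were. Nothing is read from these counts, since the set was chosen on this contrast.

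**Figure D2:**
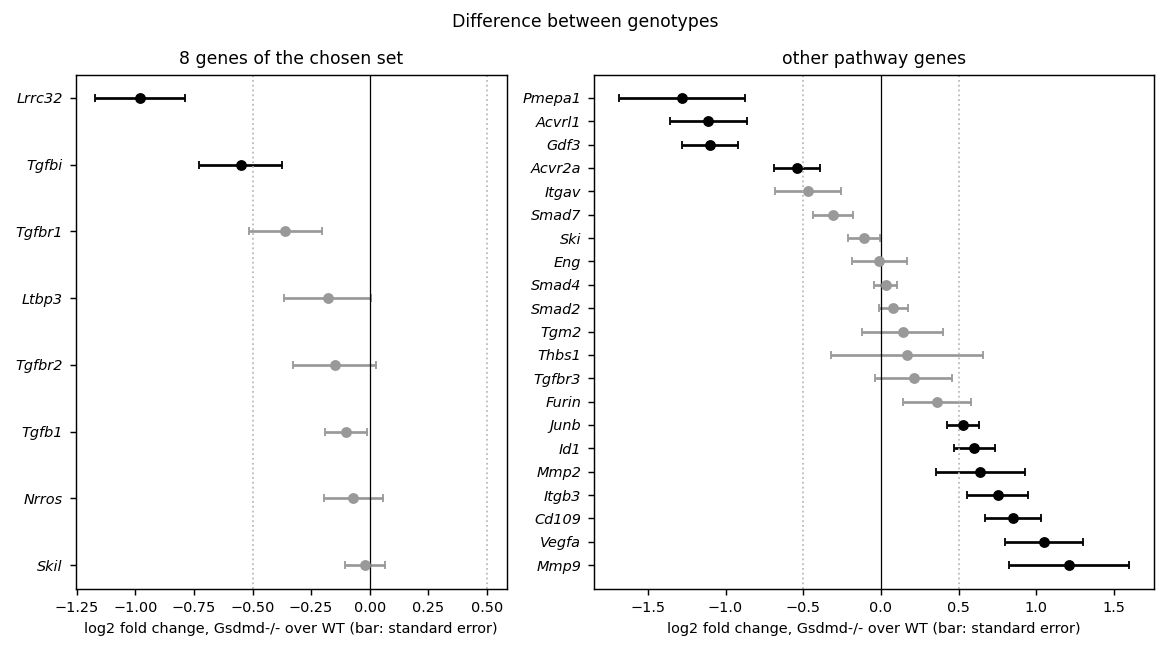
Log2 fold change of Gsdmd-/- over WT on the x axis for the 8 tested genes of the set (left) and for the tested genes named from the other pathway lists (right), with bars of 1 standard error. Black marks genes at the cutoff of the study and grey the others, and dotted lines stand at ±0.5. Lrrc32 (-0.98) and Tgfbi (-0.55) lie past the line on the left, and genes lie past it on both sides on the right, from Pmepa1 (-1.28) to Mmp9 (1.21). Both of these ends are genes at low counts, with 7 to 38 counts per library for Pmepa1 and 4 to 23 for Mmp9.

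Per exon length, in CPM per kb, the order of the levels in WT was Tgfbi (167 ± 44.0), Tgfb1 (108 ± 9.99), Nrros (50.9 ± 9.62), Tgfbr1 (29.1 ± 6.70), Tgfbr2 (22.8 ± 6.07), Lrrc32 (9.46 ± 1.21), Skil (5.93 ± 0.584) and Ltbp3 (2.71 ± 0.796), followed by Smad3 (0.138) and Tgfb2 (0.0105). Among these neighbours, the ranges of the 4 WT libraries overlapped only for Tgfbr1 and Tgfbr2. In the Gsdmd-/- libraries the range of Tgfbi (114 ± 15.2) overlapped that of Tgfb1 (101 ± 5.17), and the range of Lrrc32 (4.79 ± 1.45, from 3.53 to 6.66) overlapped that of Skil (5.85 ± 0.152), which now stood above it. Nrros (48.4 ± 2.28), Tgfbr1 (22.7 ± 2.21), Tgfbr2 (20.6 ± 2.35) and Ltbp3 (2.39 ± 0.163) kept their places, and the ranges of Tgfbr1 and Tgfbr2 overlapped again.

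**Figure D3:**
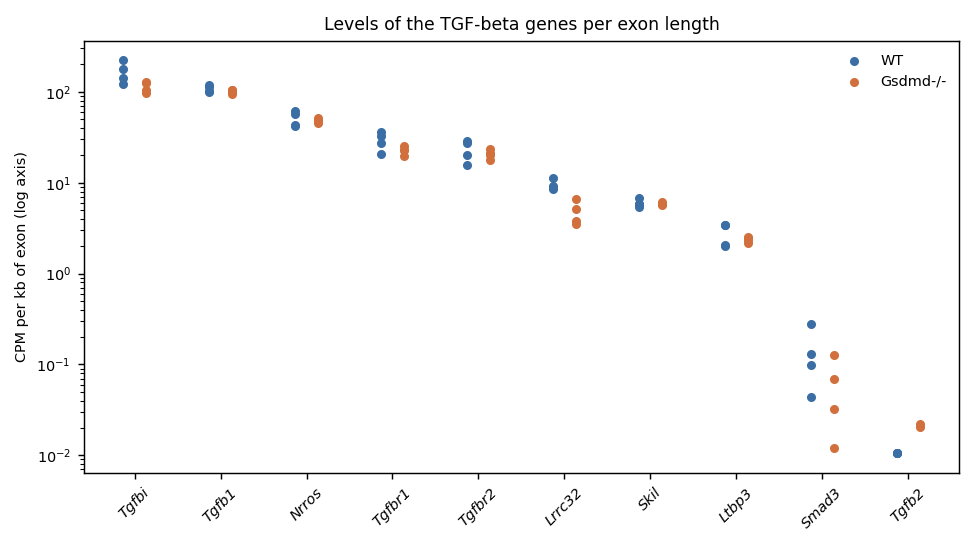
Level of the 10 genes in CPM per kb of exon on a log y axis, 1 point per library, in WT (blue) and Gsdmd-/- (orange) BMDMs, with the genes ordered by their WT mean. The levels run from 167 for Tgfbi to 0.0105 for Tgfb2 in WT, and the 2 Gsdmd-/- libraries with 0 counts of Tgfb2 cannot be drawn on this axis.

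Much of the spread of these genes in WT followed WT 2 and WT 3. Tgfbr1, Tgfbr2 and Ltbp3 had their highest pair of libraries in WT 2 and WT 3, as did 17.9% of all genes tested. Their mean in WT 2 and WT 3 was 1.43, 1.55 and 1.68 times that in WT 1 and WT 4. Nrros, Tgfb1 and Tgfbi had their highest pair in WT 1 and WT 4, as did 6.99% of all genes, and their ratio of WT 2 and WT 3 to WT 1 and WT 4 was 0.723, 0.856 and 0.657. The receptors and the matrix latency protein were thus high in the WT libraries in which the ligand, its macrophage anchor and the target gene were low. Lrrc32 (0.908) and Skil (0.96) differed little between these WT pairs.

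Single markers differed between the same libraries, in both directions. Vwf, a platelet and endothelial gene, had 3892 and 3298 counts in WT 2 and WT 3 and 1851 and 1335 counts in WT 1 and WT 4. Kit, a mast cell and progenitor gene, had 187 and 168 counts in WT 2 and WT 3 and 1167 and 986 counts in WT 1 and WT 4. The platelet genes Pf4 (126 and 181 counts against 222 and 461) and Itga2b (5 and 13 against 28 and 24) and the endothelial gene Kdr (387 and 345 against 1078 and 901) were lower in WT 2 and WT 3, unlike Vwf. The endothelial genes Tie1 (31 and 30 counts against 2 and 3) and Pecam1 (9 and 14 against 2 and 4) were higher there, at low counts. The summed macrophage markers were lowest in WT 2 and WT 3, at 16200 and 18000 CPM, and were mostly Lyz2. Of the 10, however, Adgre1 (5227 and 5342 counts against 4784 and 4551), Mertk (4085 and 3472 against 2317 and 1664) and Mrc1 (13546 and 12362 against 11534 and 8798) were higher in WT 2 and WT 3, and the other 7 were lower. The part of these cells in the receptor levels was not tested.

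**Figure D4:**
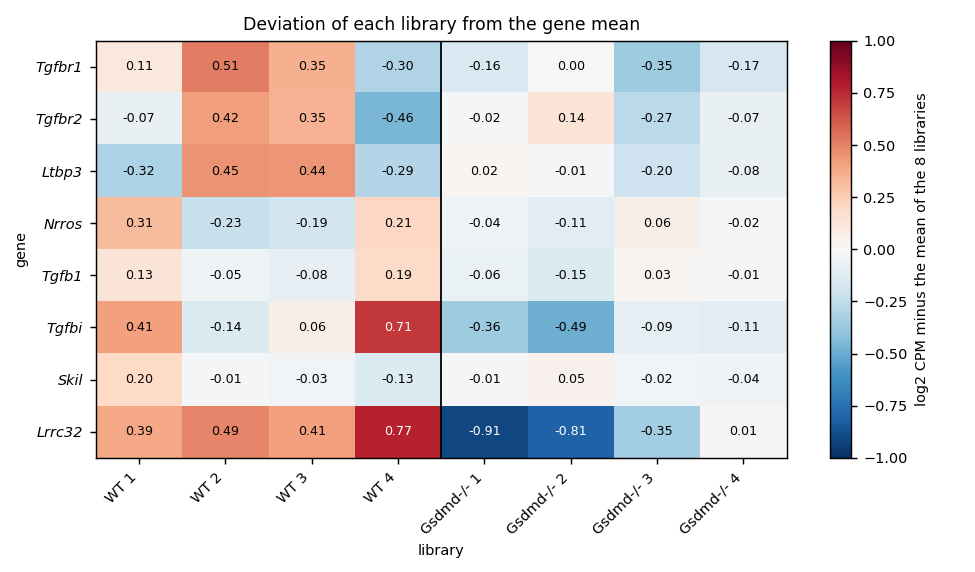
Deviation of each library (x axis) from the mean of the 8 libraries in log2 CPM, for the 8 tested genes (y axis), with red above and blue below the mean. Tgfbr1, Tgfbr2 and Ltbp3 are high in WT 2 and WT 3, Nrros, Tgfb1 and Tgfbi are high in WT 1 and WT 4, and Lrrc32 is high in all 4 WT libraries.

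Set against each WT pair, the Gsdmd-/- mean of Lrrc32 was 0.483 times that of WT 1 and WT 4 and 0.532 times that of WT 2 and WT 3. For Tgfbi the ratios were 0.567 and 0.863, so that the lower level rested mainly on WT 1 and WT 4. Tgfbr1 stood at 0.947 of WT 1 and WT 4 and at 0.663 of WT 2 and WT 3, and Tgfbr2 at 1.15 and 0.741. Lrrc32, Tgfbi and Tgfbr1 were the 3 tested genes of the set whose mean lay below that of both pairs. These ratios are a description of 2 libraries each.

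Of 99 other genes of the pathway, listed from textbook knowledge, 68 passed the filter. At the cutoff of the study 7 of them were higher (10.3% of 68, against 1.54% of all genes tested) and 4 were lower (5.88%, against 3.28%). Their log2 fold changes lay on both sides of 0, with 31 above, 37 below and a median of -0.04. By the quasi-likelihood test 1 of them, Gdf3, passed at an adjusted p under 0.05, against 0.349% of all genes tested. By DESeq2 and also without the filter, Itgb3, Acvrl1, Cd109, Junb, Id1 and Vegfa had an adjusted p under 0.05 as well (0.000485 to 0.0171 by DESeq2 and 0.00919 to 0.0285 without the filter). Calls rose over all genes too, from 18 higher and 27 lower in the main fit to 105 and 187 by DESeq2 and 44 and 65 without the filter. The adjusted p-values that follow are from the quasi-likelihood test with Benjamini-Hochberg adjustment over all genes tested.

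Gdf3, a ligand of the activin branch, had 7.55, 8.43, 6.96 and 8.46 CPM in WT 1 to 4 and 3.38, 4.26, 4.31 and 2.65 CPM in Gsdmd-/- 1 to 4. The genotypes did not overlap, and the mean fell from 7.85 ± 0.728 to 3.65 ± 0.791 CPM (log2 fold change -1.10 ± 0.179 SE, adjusted p = 0.0361). Over the other 16 analyses its adjusted p was under 0.05 in 8. The other 5 tested genes of the activin and GDF branch did not reach the cutoff of the study.

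Among 9 tested activators of latent TGF-beta, 3 were higher at the cutoff of the study and 0 lower, where 1.54% and 3.28% of all genes tested were. Of the 9 log2 fold changes 5 lay above 0 and 4 below, with a median of 0.04. The chain Itgb3, which pairs with Itgav in an integrin that frees TGF-beta, had 68.1 to 139 CPM in WT and 160 to 202 CPM in Gsdmd-/- libraries, without overlap (log2 fold change 0.75 ± 0.194 SE, adjusted p = 0.174, and 1.13, adjusted p = 0.0121, without WT 2 and WT 3). The last fit was added after the data had been seen and left only WT 1 and WT 4 in the WT group. For Itgav, the partner of Itgb3, the log2 fold change was -0.47 ± 0.213 SE (adjusted p = 0.428). Itgav was highest in WT 2 and WT 3, at 95.4 and 82.5 CPM, and without them its log2 fold change was -0.01. The matrix metalloproteases Mmp2 (log2 fold change 0.64, adjusted p = 0.409) and Mmp9 (1.21, adjusted p = 0.264) were the other activators past the cutoff, and Mmp9 rested on 31 counts in WT and 71 in Gsdmd-/- libraries. Mmp9 passed the filter through its Gsdmd-/- libraries, with 13 to 23 counts each against 4 to 13 in WT. It was not kept where 10 counts were required in every library. Without WT 2 and WT 3 the log2 fold changes of Mmp2 and Mmp9 were 0.36 and 0.78, and that of Mmp2 was 0.41 without Gsdmd-/- 1. Itgb8, the other TGF-beta-freeing integrin chain known from myeloid cells, had 2 counts in Gsdmd-/- 2 and 0 in the other libraries. Thbs1, a matrix protein that can free the cytokine, had means of 15.7 ± 11.9 CPM in WT and 17.6 ± 3.94 CPM in Gsdmd-/- libraries (log2 fold change 0.17, adjusted p = 0.925) and varied with the WT pairs, from 5.37 to 5.62 CPM in WT 2 and WT 3 to 24.0 and 27.9 CPM in WT 4 and WT 1, with a log2 fold change of -0.56 without WT 2 and WT 3. For Furin, the protease that cuts the propeptide, the log2 fold change was 0.36 (adjusted p = 0.57), and -0.0012 without WT 2 and WT 3. Ltbp1 had at most 4 counts in a library and was not tested.

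Among 12 tested co-receptors and related receptors, 1 was higher and 2 were lower at the cutoff of the study, where 1.54% and 3.28% of all genes tested were. Acvrl1, the type I receptor also called ALK1, had 35.7 to 77.4 CPM in WT and 21.3 to 34.9 CPM in Gsdmd-/- libraries, without overlap (log2 fold change -1.11 ± 0.248 SE, adjusted p = 0.115). Its WT values were highest in WT 2 and WT 3, and without them the log2 fold change was -0.64 (adjusted p = 0.189). For Acvr2a, an activin receptor, it was -0.54 ± 0.147 SE (adjusted p = 0.198). Cd109, a co-receptor that restrains TGF-beta signaling, went the other way, from 23.2 ± 5.03 to 41.9 ± 8.47 CPM (log2 fold change 0.85 ± 0.180 SE, adjusted p = 0.0978). The co-receptors Tgfbr3 (0.21, adjusted p = 0.781) and Eng (-0.01, adjusted p = 0.994) were not past the cutoff, and the log2 fold change of Eng was 0.39 without WT 2 and WT 3.

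Inside the cell 0 of 13 tested SMADs and SMAD partners were past the cutoff of the study, where 1.54% of all genes tested were higher and 3.28% lower. The signal carrier Smad2 (log2 fold change 0.08, adjusted p = 0.767, and -0.05 without WT 2 and WT 3), the shared Smad4 (0.03, adjusted p = 0.891) and the inhibitor Smad7 (-0.31 ± 0.127 SE, adjusted p = 0.377) stayed inside the cutoff. Of 11 tested repressors and ubiquitin ligases 1 was lower, against the same 3.28% of all genes tested. This gene was Pmepa1, a TGF-beta-induced inhibitor, with 33, 22, 13 and 38 counts in WT 1 to 4 and 18, 9, 9 and 7 counts in Gsdmd-/- 1 to 4. The genotypes overlapped in Pmepa1, and its log2 fold change was -1.28 ± 0.403 SE (adjusted p = 0.26). The log2 fold change of Ski, the paralog of Skil, was -0.11 (adjusted p = 0.733).

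Of 12 tested target genes 3 were higher at the cutoff of the study and 0 lower, where 1.54% and 3.28% of all genes tested were. The higher target genes were the transcription factor gene Junb (log2 fold change 0.53 ± 0.103 SE, adjusted p = 0.0751), the inhibitor of differentiation Id1 (0.60 ± 0.131 SE, adjusted p = 0.108) and the growth factor Vegfa (1.05 ± 0.250 SE, adjusted p = 0.132). Of the 12, the Gsdmd-/- libraries lay wholly above the WT libraries in 4 (Junb, Id1, Vegfa and Id2, which missed the cutoff), where 3.48% of all genes tested did, and wholly below them in 1, Klf10 (log2 fold change -0.39, adjusted p = 0.261), where 4.12% did. Klf10 was highest in WT 2 and WT 3, at 78.1 and 70.0 CPM. It had 57.1 and 52.9 CPM in WT 1 and WT 4, near the 46.7 to 51.0 CPM of the Gsdmd-/- libraries, and its log2 fold change rested mainly on WT 2 and WT 3. Junb, Id1 and Vegfa respond to many other signals. Without WT 2 and WT 3 the log2 fold change was 0.44 for Junb, short of the cutoff, 0.57 for Id1 and 0.73 for Vegfa. For the transglutaminase gene Tgm2 the log2 fold change was 0.14 (adjusted p = 0.868), and 0.69 (adjusted p = 0.186) without WT 2 and WT 3. Of 10 genes that microglia and macrophages need TGF-beta to express, 4 passed the filter and 0 of them the cutoff, with a median log2 fold change of -0.49, which was -0.20 without WT 2 and WT 3, and adjusted p-values of 0.483 to 0.851. Several of these genes, among them Itgb3, Acvrl1, Junb and Vegfa, were known to differ in these libraries when the lists were written, so that the counts are no independent evidence of a direction.

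Among the 10 genes whose log2 CPM was most like that of Lrrc32 over the 8 libraries were Lcp2 (Pearson r = 0.981), Agtrap (0.977), BC037034 (0.977), Aste1 (0.975), Olfm1 (0.974), Paqr7 (0.972), Cmc2 (0.972), Cytip (0.970) and Bmt2 (0.968). These r describe 8 points that share the difference between the genotypes. The fold changes of the 10 genes were smaller than that of Lrrc32, between -0.48 and -0.19 on the log2 scale. Of the set itself, Tgfbi (0.816) and Tgfb1 (0.626) came closest, and the r of Tgfbr2 (-0.024) and Skil (-0.154) lay near 0.

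Within 500 kb of Lrrc32 on chromosome 7 there were 12 other protein-coding genes, of which 7 passed the filter. Their log2 fold changes lay between -0.39 for Myo7a and 0.22 for Thap12, with Tsku at -0.29, Capn5 at -0.28, Uvrag at -0.05, Emsy at -0.02 and Acer3 at -0.01. By the quasi-likelihood test 0 of the 7 were past the cutoff of the study, and the lowest adjusted p among them was 0.462.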

How the data were processed

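RNA of 8 untreated BMDM libraries was made into TruSeq libraries, a kit that does not mark strand, and sequenced. The authors deposited 1 table of read counts per gene, not normalized. The submitters' processing notes name mm10, and the aligner, counter and annotation are not given in the sources used here. Positions and exon lengths are from GENCODE M21 (GRCm38), which held 54495 of 54532 identifiers (99.9%).

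In edgeR 4.0.16 under R 4.3.3, filterByExpr kept 12911 genes and TMM set the library scaling. The two-sided quasi-likelihood test compared Gsdmd-/- with WT on genotype alone, with Benjamini-Hochberg adjustment over all genes tested. The SE is the log2 fold change over the root of its F value. CPM use TMM-scaled totals, log2 CPM a prior count of 2, and CPM per kb the union of exons. Marker sums were compared by an exact permutation test over the libraries, adjusted over 9 lists with SciPy 1.17.1. The fits were tested on simulated data.

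Alternatives were RLE and upper-quartile normalization, DESeq2 1.42.0, limma voom 3.58.1, leaving out the filter, a minimum of 10 counts per library, a replicate-number block, a log2 fold change of 1 or more in size, and each library left out in turn. Leaving out WT 2 and WT 3 together was added after the data had been seen. The gene set, the pathway and marker lists and the tests were chosen with earlier results of these data known. All genes of the set were named, with a fixed list of 16 pathway genes, every other pathway gene past the cutoff of the study or an adjusted p of 0.05, the 10 genes most like Lrrc32 and its tested neighbours. Some genes that this rule names are not reported here. Genes singled out besides these (Vwf, Kit, Irf4, Clec9a and other single markers) were chosen after their values were seen.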

Additional observations from a re-analysis of the deposited data

Results flagged for a closer look

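In 2 of the 68 groups of 4 libraries examined, over the set and the other named pathway genes, 1 library lay far from the other 3 by Dixon's criterion at the 95% level, where chance gives about 1 in 20. Both were genes at very low counts. Itgb8 had 0.118 CPM, from 2 counts, in Gsdmd-/- 2 against 0 in the other Gsdmd-/- libraries. Ltbp1 had 0 CPM in Gsdmd-/- 3 against 0.0591 to 0.0663 CPM, from 1 count each, in the others. No gene of the 10-gene set had such a library.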

How the results depend on the processing

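Over the 16 alternatives the log2 fold change was -1.19 to -0.86 for Lrrc32 and -0.82 to -0.38 for Tgfbi. Members of the set at the cutoff were 1 to 2 when single libraries were left out (1 without Gsdmd-/- 2, and Smad3 in place of Tgfbi without WT 4), and 0 with a log2 fold change of 1 or more in size. Smad3 passed the filter in only 5 of the 8 fits without single libraries. The other pathway genes at the cutoff were 5 to 8 higher and 4 to 7 lower without single libraries, 7 lower without WT 2 and WT 3, and 2 higher at a log2 fold change of at least 1. Over all genes, the calls at an adjusted p under 0.05 (18 higher, 27 lower) became 105 and 187 with DESeq2, 44 and 65 without the filter, 53 and 108 without WT 2 and WT 3, and 8 to 28 and 5 to 56 without single libraries, the most without WT 4. At the cutoff of the study 199 were higher and 424 lower, with 421 and 783 without the filter, 59 and 140 at a log2 fold change of at least 1, 405 higher without WT 2 and WT 3, and 155 to 318 and 297 to 704 without single libraries. The cause was not tested. The sign of Eng turned with upper-quartile normalization (0.004), voom (0.04), no filter (0.01), the block (0.03), without single libraries (-0.14 to 0.12) and without WT 2 and WT 3 (0.39). Without WT 2 and WT 3 it also turned for Furin (-0.0012), Thbs1 (-0.56) and Smad2 (-0.05), and for the summed markers of macrophages (-0.04), megakaryocytes (0.06) and mast cells (-0.21, all log2 ratios). Over the fits without single libraries the value changed sign for Nrros (-0.16 to 0.03) and Skil (-0.06 to 0.05) of the set, for Thbs1 (-0.12 to 0.60), Tgm2 (-0.04 to 0.31), and the markers of B cells (-0.19 to 0.01), stromal cells (-0.10 to 0.24) and neutrophils (-0.01 to 0.17).

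Replicate numbers did not pair the libraries. The correlation of the deviations of same-numbered libraries was -0.201 to 0.182, and 2 of 8 libraries correlated best with their own number. A replicate block gave 9 higher and 16 lower genes at an adjusted p under 0.05.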

Other observations

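Among the other TGF-beta target and activator genes, 2 with large differences between the WT pairs were Fn1 and Mmp14, and both were singled out after their values were seen. Fn1, the gene of fibronectin, had 1318, 119, 96 and 1559 counts in WT 1 to 4 and 613, 727, 209 and 339 counts in Gsdmd-/- 1 to 4. All Gsdmd-/- libraries lay between WT 2 and WT 3 on the low side and WT 1 and WT 4 on the high side. Mmp14, a membrane-bound matrix protease, had 2912, 1405, 1675 and 4279 counts in WT 1 to 4 and 2081 to 2632 counts in the Gsdmd-/- libraries, which again lay between the WT pairs. Tgfbi and Thbs1 likewise had their lowest WT levels in WT 2 and WT 3, while Tgm2 (84.3 and 87.0 CPM against 51.6 and 37.5) and Itgav (95.4 and 82.5 CPM against 59.4 and 42.6) were higher there than in WT 1 and WT 4. The labels give no batch or date that would tell WT 2 and WT 3 from WT 1 and WT 4.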
